A study of Homo sapiens with 18 samples.

Results

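RNA-seq libraries from B-K562 cells, which express wild type BASP1 (wtBASP1), were compared with those from V-K562 cells, the same line carrying the empty vector. Both are derived from K562, an established human leukemia cell line of erythroid character. The comparison uses 6 of the 18 libraries of the series, 3 cultures of each line, and its members are the 14958 genes of 28395 in the table that reached a value of 10 or more in at least 3 of the 6 libraries. The labels give the cell line and, as the condition, Control or Expressing WT BASP1. Per the study's methods the transfected derivatives were stable and were kept as a selected pool, so neither line is 1 clone. There is 1 pool of each kind, and the effect of BASP1 and other differences between the pools cannot be told apart.

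BASP1 is a small acidic protein, first known from nerve terminals, that is myristoylated at its N-terminus and acts in the nucleus as a transcriptional corepressor. It has been studied most as a partner of the zinc-finger transcription factor WT1, where it recruits histone deacetylase and nuclear lipids and turns a transcriptional activator into a repressor. K562 cells make WT1 but little BASP1, so introduction of BASP1 adds the corepressor to a cell that already has the transcription factor. K562 cells also make embryonic and fetal globins and can be driven further along the red cell or the platelet lineage.

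The deposited values are read counts that the authors divided by a size factor for each library and rounded to whole numbers. They summed to between 32074895 and 33138341 per library, and the spacing that the rounding left in the values gives an estimated 28917684 to 37036662 reads on genes. A value of 10 therefore stands for about 10 reads. Differences are given as log2 fold changes of (value + 1), B-K562 over V-K562, with the standard error (SE) and an adjusted p from limma-trend, a linear model fitted across all genes tested with Benjamini-Hochberg adjustment. On this scale the change of a low gene is understated. A gene "rose" or "fell" at an adjusted p of at most 0.05 and was called activated or repressed when the change was also at least 2-fold. Pearson's correlation of log2 values was at least 0.9934 between libraries of 1 line and at most 0.9475 between lines.

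Although the libraries of each line were close to each other, replicate 1 of both lines held RNA that was low or at 0 in the other libraries of its line. In V-K562 replicate 1, 25 genes reached 40 or more and at least 5 times the next V-K562 library, and many of them are known from epithelial cells or the interferon response. The keratin KRT5 had a value of 143 there and 0 in the other 5 libraries, and KRT7 had 159, 0 and 0 in V-K562. In B-K562 replicate 1, 13 genes did so, led by genes of connective tissue. The fibrillar collagen COL3A1 had values of 575, 4 and 2 in B-K562 and 55, 61 and 124 in V-K562, and the matrix proteoglycan LUM had 61, 1 and 3 in B-K562. No gene met this rule in V-K562 replicates 2 and 3 or in B-K562 replicate 3, and 1 gene did in B-K562 replicate 2. Only 4 of the 25 genes and 7 of the 13 passed the filter and were tested, and 2 of these 4 and 1 of these 7 were called.

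**Figure D1:**
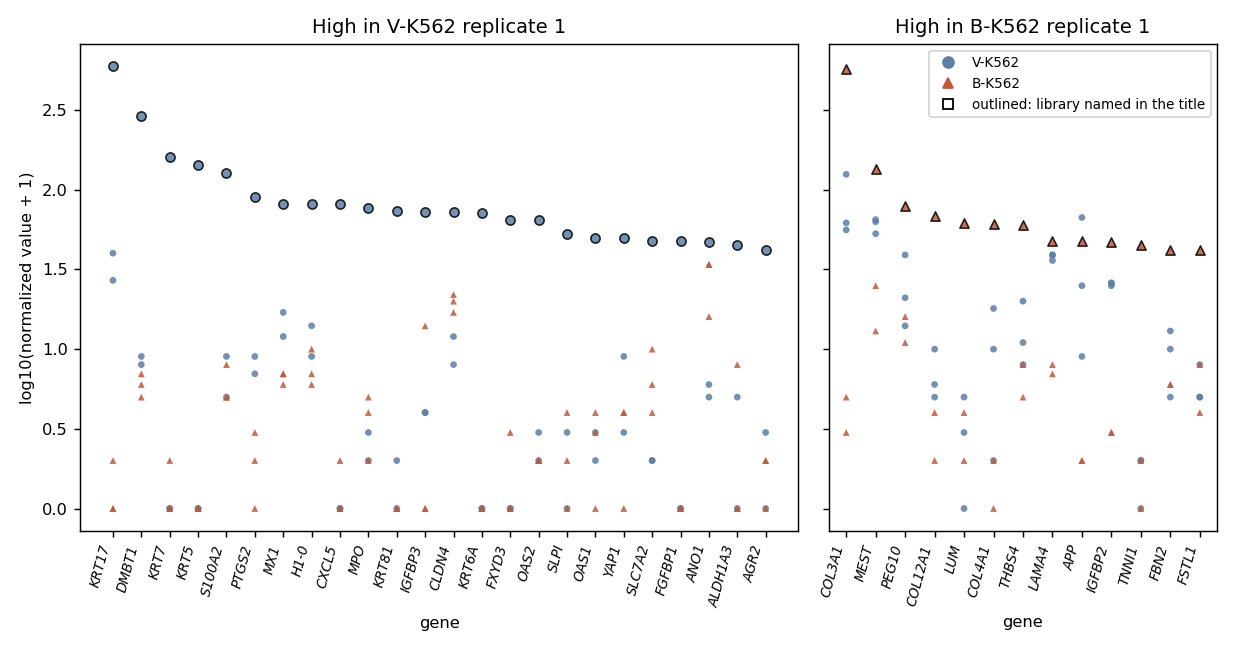
Values of the genes that stood out in 1 library, as log10(value + 1), for 24 of the 25 genes high in V-K562 replicate 1 and the 13 high in B-K562 replicate 1. Circles are V-K562 and triangles B-K562 libraries, and the outlined symbol is the library named in the title, which lies above the other libraries of its line for every gene.

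Leaving out both replicate 1 libraries was chosen as an alternative after the data had been seen. In it 2138 genes were repressed and 1029 activated, and 2000 and 899 of these were the same calls as with all 6 libraries. No gene was called in opposite directions. The part of these transcripts in other results was not tested beyond the values without both libraries. In these bulk cultures fewer cells of a type and less RNA per cell cannot be told apart.

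The libraries carried the markers of the line. The 11 globin genes and alpha globin chaperone in the table summed to between 86216 and 164209 per library, and 14 erythroid transcription factors to between 53408 and 64435. Simple epithelial keratins, which K562 cells are known to make, were also abundant, whereas 5 of 10 lymphocyte markers were under 10 in all 6 libraries. CD3D, a subunit of the T cell receptor complex, was an exception, at 561, 470 and 400 in V-K562 cells and 171, 173 and 172 in B-K562 cells.

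Introduction of wtBASP1 was accompanied by a change in most genes. Of the 14958 genes, 5562 (37.2%) fell and 5780 (38.6%) rose, so the small changes were balanced. Large changes were less balanced, as 2110 genes (14.1%) were repressed and 967 (6.46%) activated, and 68.57% of the genes called were repressed. Of genes that changed by at least 3 on the log2 scale, 251 fell and 36 rose. The 3 B-K562 libraries lay below all 3 V-K562 libraries for 38.1% of genes and above them for 39.7%, and they did not overlap for 3048 of the 3077 genes called. The excess of repressed genes depends on the kind of normalization. Forcing all libraries to 1 distribution of values (quantile normalization) gave 1554 repressed and 1426 activated genes, 52.15% repressed. Shifting the libraries to 1 median, which only rescales them, gave 2199 repressed and 879 activated genes, 71.44% repressed.

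Repression was found mainly among genes of low level. In the lowest of 5 equal classes by mean value, between 5.7 and 61.2, 33.2% of genes were repressed and 9.39% activated. In the highest class, from 2611.3 upwards, these shares were 3.41% and 4.21%, and 53.0% of genes rose at any fold against 30.8% that fell. Long noncoding RNAs were called more often in both directions (18.7% repressed, 9.59% activated) than protein-coding genes (13.8% and 5.86%). Small nucleolar RNAs, many of which guide modification of ribosomal RNA and lie in introns of host genes, were mainly higher. Of 154, 91 rose, 5 fell, 34 were activated and 0 repressed (median log2 fold change 0.60, against 0.01 over all genes). SNORA73A had values of 122, 105 and 111 in V-K562 cells and 426, 507 and 471 in B-K562 cells. Libraries made from polyadenylated RNA capture such RNAs poorly, and reads of a host gene that cover them are not told apart.

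**Figure D2:**
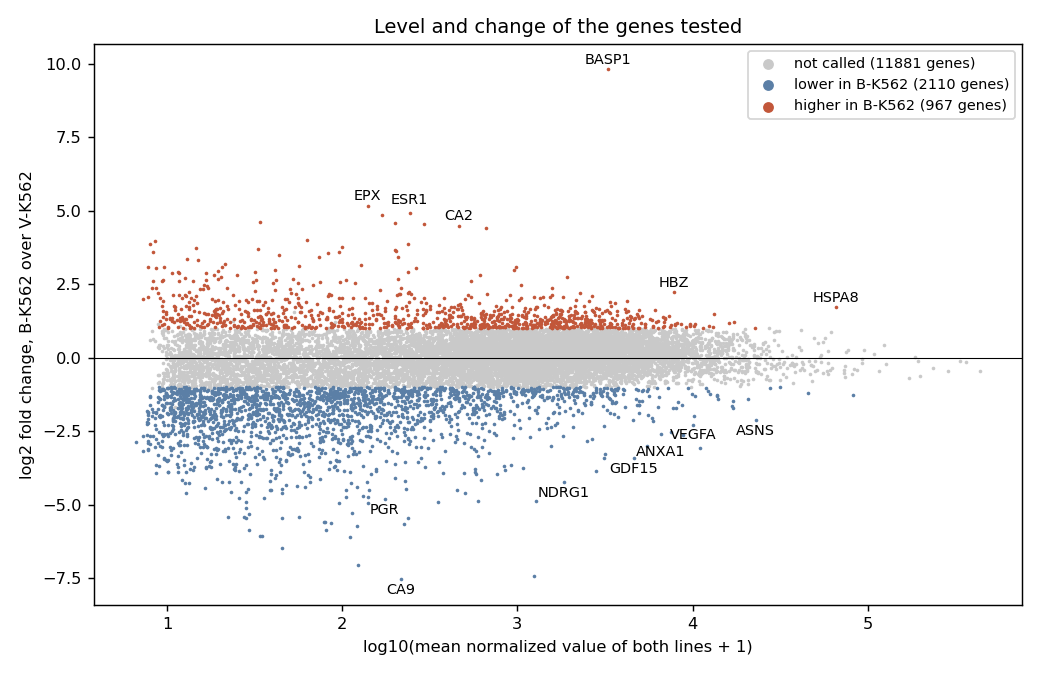
Log2 fold change of B-K562 over V-K562 cells (vertical) against the log10 mean value of both lines (horizontal) for the 14958 genes tested. The 2110 repressed genes spread furthest from 0 at low levels, where they outnumber the 967 activated genes.

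At the extremes, 19 genes with a mean of at least 50 in V-K562 cells were at 3 or less in every B-K562 library, and 1 gene showed the opposite pattern. Apart from CA9 and MARCHF1, the genes that fell most included ALX1, a homeobox gene of facial development, with values of 76, 51 and 75 in V-K562 cells and 0 in all 3 B-K562 libraries, at least 22.4-fold lower. SLC6A15, a transporter of neutral amino acids, had 66, 65 and 66 and then 0 in all 3, at least 21.9-fold lower. The calcium sensor of synaptic vesicles SYT1 was at least 29.1-fold lower and the tryptophan-degrading enzyme TDO2 at least 18.1-fold lower. No library of B-K562 cells approached a V-K562 library for any of these 4 genes. TDO2 was chosen after its values were seen, as were ASNS, PHGDH, ATF4, HSPA5, ALDOA, VIM, ITGA5, HLA-E, MX1, SNORA73A and NME1, which are also named here.

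LRRK2, a kinase linked to Parkinson disease, had values of 146, 160 and 154 in V-K562 cells and 3, 0 and 7 in B-K562 cells (log2 fold change -5.60). The zinc finger gene ZNF506 had 148, 151 and 159 against 3, 3 and 1, at least 50.9-fold lower, and ZNF597 had 109, 115 and 107 against 2, 2 and 1. The libraries of the lines were far apart for each of these genes. KRT17 was less even, with values of 596, 39 and 26 in V-K562 cells and 0, 1 and 0 in B-K562 cells. Without both replicate 1 libraries, its log2 fold change was -4.54 in place of -6.10.

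The gene switched on was RAG2, a subunit of the recombinase of antigen receptor genes, with values of 2, 2 and 1 in V-K562 cells and 59, 60 and 74 in B-K562 cells, at least 21.4-fold higher. CA2, the red cell carbonic anhydrase, rose from 38, 41 and 37 to 896, 874 and 888, a log2 fold change of 4.48 (SE 0.09, adjusted p = 4.7e-13). The calcium release channel RYR2 went from 31, 23 and 16 to 552, 580 and 541. The zinc finger gene ZNF648 (10, 10 and 11 against 303, 337 and 338), the Rap GTPase activator RAP1GAP2 (17, 22 and 9 against 362, 394 and 398) and the actin-like testis gene ACTL8 (66, 63 and 48 against 1213, 1315 and 1277) also rose. In each case the B-K562 libraries were close together and more than 10 times above V-K562. ASCL2, a basic helix-loop-helix factor, and BSN, a scaffold of the presynaptic zone, also rose, by 3.71 and 3.88 on the log2 scale.

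**Figure D3:**
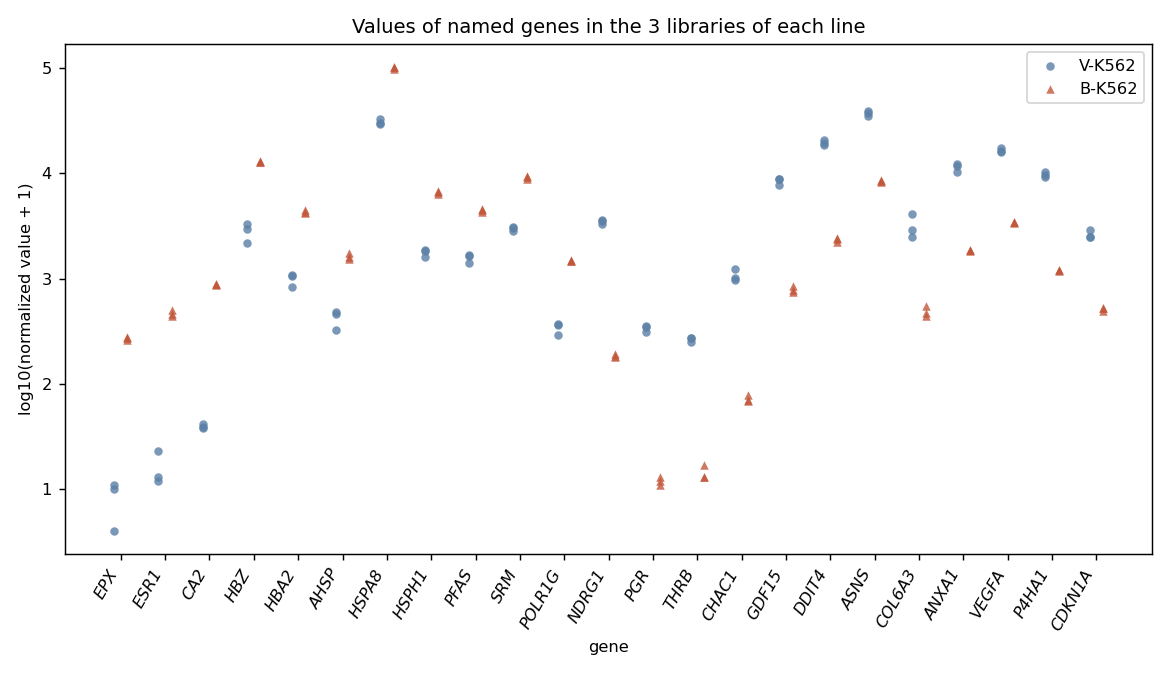
Values of 23 genes as log10(value + 1) in the 3 V-K562 (circles) and 3 B-K562 (triangles) libraries. The libraries of the lines do not overlap for any of the genes drawn, whether they rose (EPX to POLR1G) or fell (NDRG1 to CDKN1A).

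BASP1 belongs with GAP43 and the MARCKS proteins to a group of membrane proteins that bind the phospholipid PIP2. BASP1 itself had values of 7, 5 and 7 in V-K562 cells and 6849, 6618 and 6189 in B-K562 cells. GAP43 fell from 58, 51 and 47 to 16, 12 and 11 (log2 fold change -1.93, SE 0.23, adjusted p = 3.6e-06). MARCKS had 84, 53 and 80 against 47, 15 and 25 and MARCKSL1 had 5654, 5315 and 4697 against 9921, 9670 and 9304. MARCKS thus fell, with a log2 fold change of -1.41, and MARCKSL1 rose by 0.89. Of the enzymes that myristoylate proteins, NMT1 rose by 0.38 and NMT2 fell by 0.67, and of the aminopeptidases that first remove the methionine, METAP2 rose by 0.29 and METAP1 fell by 0.32. Among 29 genes of PIP2 synthesis and turnover 14 fell and 9 rose. The kinase PIK3CG was the only one called, at 2347, 2820 and 2756 in V-K562 cells and 1070, 1165 and 1113 in B-K562 cells.

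A list of 11 genes held partners of BASP1 and the transcription factors that the study names beside it. Of these 10 rose and 0 fell, with a median of 0.28. POU3F2, a neural transcription factor, was the only one called, at 14, 8 and 13 against 122, 140 and 137. The prohibitin PHB1 had values of 5038, 4867 and 4205 against 8803, 8774 and 8646 (log2 fold change 0.90, SE 0.06, adjusted p = 1.3e-08), whereas its partner PHB2 rose by 0.13. The remodeling ATPase SMARCA4 rose by 0.38 and the histone deacetylase HDAC1 by 0.25. CTCF, with 1531, 1510 and 1486 against 2975, 3055 and 3005, was just below the 2-fold limit. The rises of WT1, RELA and PHB2 did not pass the test under quantile normalization.

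Of 15 genes known as WT1 targets, 5 were repressed (33.3%, against 14.1% over all genes) and 0 activated (against 6.46%). At any fold 8 fell (53.3%, against 37.2% over all genes) and 2 rose (13.3%, against 38.6%). The median was -0.33. The EGF receptor ligand AREG had values of 322, 310 and 339 in V-K562 cells and 53, 56 and 53 in B-K562 cells (log2 fold change -2.56, SE 0.11, adjusted p = 1.7e-10). VEGFA, the main angiogenic growth factor, went from 16137, 16215 and 17513 to 3373, 3431 and 3492. CDKN1A, an inhibitor of cyclin-dependent kinases, had 2476, 2487 and 2889 against 521, 489 and 525. ETS1, a transcription factor of blood and endothelial cells, fell further, from 782, 831 and 1010 to 119, 111 and 114 (log2 fold change -2.91, SE 0.10). The vitamin D receptor gene VDR was at 363, 366 and 414 against 175, 201 and 170. For these 5 genes no B-K562 library reached a V-K562 library. EREG did not pass the test, with values of 18, 9 and 12 against 0, 5 and 12 (adjusted p = 0.051), and RARA, a retinoic acid receptor, and IGF1R were the genes that rose, by 0.48 and 0.30.

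Globin genes rose. All 9 genes of the globin group that passed the filter, of 11 in the table, were higher, 5 of them by at least 2-fold, with a median of 1.12. The embryonic alpha-type globin HBZ had values of 3283, 2950 and 2179 in V-K562 cells and 13104, 12872 and 12751 in B-K562 cells (log2 fold change 2.22, SE 0.11, adjusted p = 5.4e-10). HBA2, the adult alpha globin, went from 1091, 1070 and 830 to 4486, 4266 and 4163, and its chaperone AHSP from 480, 456 and 327 to 1734, 1590 and 1524. The embryonic and fetal beta-type globins started from higher levels and rose less, HBE1 by 0.55, HBG2 by 0.68 and HBG1 by 0.69. In every case all B-K562 libraries were above all V-K562 libraries. HBA1 and HBA2, and likewise HBG1 and HBG2, are near-identical copies whose reads may have been divided between them or dropped.

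Of 19 genes of the red cell membrane and its receptors, 13 rose and 3 fell. EPB42, which ties the anion exchanger to the membrane skeleton, had values of 216, 230 and 215 against 684, 693 and 703, and beta-spectrin SPTB had 2566, 3028 and 2377 against 6329, 6629 and 6782. TRIM10, a protein of late erythroid cells, fell from 366, 349 and 431 to 107, 131 and 149. Of 14 genes of heme synthesis and breakdown 10 rose and 4 fell, with a median of 0.46. Of the breakdown enzymes, BLVRA and BLVRB fell by 0.32 and 0.42. The heme oxygenase HMOX2 rose, by 0.70 without both replicate 1 libraries, and HMOX1 was too low to be tested. ALAS2, the erythroid form of the first enzyme, rose by 0.69, but CPOX, a later enzyme, fell from 4356, 4482 and 4174 to 2371, 2284 and 2249. Of 12 genes of iron handling 4 fell and 5 rose, near the shares over all genes. The transferrin receptor TFRC rose by 0.90 and the ferric reductase STEAP3 by 1.52, while the ferritin chains FTH1 and FTL fell by 0.55 and 0.44, as did the ferritin receptor NCOA4, by 0.73. The exporter SLC40A1 rose by 0.50, the mitochondrial importer SLC25A37 fell by 0.41, and the uptake genes TFR2 and SLC11A2 did not pass the test, both at -0.06.

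Erythroid transcription factors moved both ways. Of 13 tested, 8 rose (61.5%, against 38.6% over all genes) and 4 fell (30.8%, against 37.2%). By at least 2-fold, 2 were activated (15.4%, against 6.46%) and 1 repressed (7.69%, against 14.1%). GATA1, the main erythroid factor, rose by 0.22 and KLF1, which drives adult globin genes, by 0.88. ZFPM1, the cofactor of GATA1, had values of 996, 1088 and 1050 against 2647, 2635 and 2588, a log2 fold change of 1.33 (SE 0.05, adjusted p = 8.8e-11). SOX6, which silences embryonic globin in later development, fell from 224, 239 and 247 to 50, 38 and 36 (log2 fold change -2.50, SE 0.14). These 2 factors moved in opposite directions without overlap between the lines.

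Of 14 transcription factors and receptors of the myeloid lineage, 9 fell and 4 rose, with a median of -0.69. CSF3R, the receptor for granulocyte colony-stimulating factor, had values of 164, 178 and 316 against 42, 39 and 37, and GFI1, a repressor needed for neutrophils, had 258, 277 and 318 against 81, 68 and 72. In contrast CSF2RB, the shared receptor chain for IL-3 and GM-CSF, rose from 243, 215 and 218 to 529, 563 and 565, and FCER1A, a chain of the IgE receptor, from 20, 13 and 16 to 38, 59 and 73. Of 13 genes of granulocyte granule proteins only 6 were tested, of which 3 fell, 2 rose and 1, LYZ, did not pass. The neutrophil proteins PRTN3 (51, 36 and 67 against 10, 5 and 4) and AZU1 (201, 192 and 291 against 77, 62 and 51) fell. The eosinophil proteins EPX, from 10, 9 and 3 to 260, 272 and 280, and PRG2, from 969, 844 and 850 to 1646, 1622 and 1465, rose. Among the untested genes, RNASE2 and RNASE3 were at 0 in all 6 libraries. PRG3 had 1, 2 and 7 against 3, 4 and 4, and CLC had 4, 0 and 1 against 25, 8 and 17. Platelet genes moved both ways, with ITGA2B lower by 1.31 and the collagen receptor GP6 higher by 1.32.

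**Figure D4:**
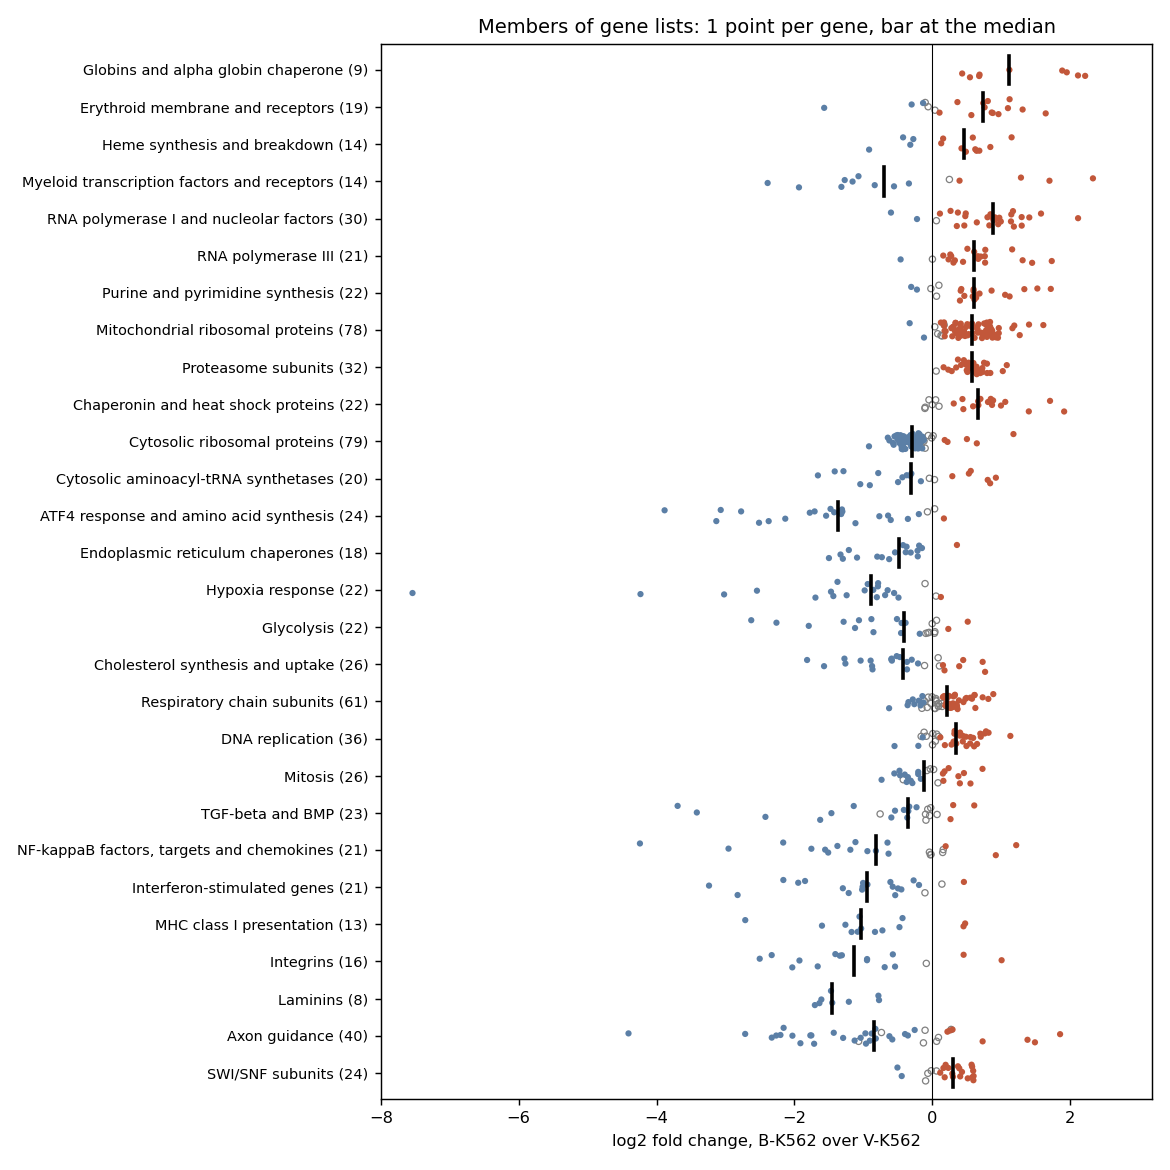
Log2 fold change, B-K562 over V-K562, of each tested gene in 28 gene lists, with the number tested in parentheses and a bar at the median. Filled blue points fell and filled red points rose at an adjusted p of at most 0.05, and open points did not pass; most points of the nucleolar, mitochondrial ribosomal and proteasome lists lie above 0 and most of the ATF4, hypoxia and laminin lists below it.

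Genes of RNA polymerases I and III and of nucleotide synthesis were mainly higher. Of 30 genes for RNA polymerase I and nucleolar factors, 27 rose, 2 fell and 9 were activated, with a median of 0.88. POLR1G, a subunit of RNA polymerase I, had values of 373, 361 and 292 in V-K562 cells and 1478, 1501 and 1465 in B-K562 cells (log2 fold change 2.12, SE 0.08, adjusted p = 1.1e-10). Its largest subunit POLR1A went from 1455, 1746 and 1540 to 4658, 4735 and 4763. For both subunits the lines were separated by more than the spread of the libraries. Of 21 genes of RNA polymerase III and its factors 19 rose and 1 fell.

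In purine and pyrimidine synthesis 17 of 22 genes rose and 2 fell (median 0.60). DHODH, the mitochondrial step of pyrimidine synthesis, had values of 210, 226 and 173 against 621, 708 and 680. PFAS of the purine pathway had 1624, 1666 and 1399 against 4346, 4617 and 4537, and CTPS1, which makes CTP, had 2891, 2904 and 2570 against 6973, 7254 and 6919. IMPDH2, the guanine nucleotide enzyme, fell by 0.30. In the polyamine pathway ODC1, the first enzyme, and SRM, spermidine synthase, rose by 1.23 and 1.63, and SAT1, which acetylates polyamines for export, fell from 5717, 6004 and 7029 to 1983, 1882 and 1946.

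Genes of protein folding and turnover in the cytosol were mainly higher. Of 32 proteasome subunits 31 rose and 0 fell, within a narrow range (median 0.58), and PSMD1 and PSMB2 were the only subunits called. HSPA8, the constitutive Hsp70, had values of 29634, 32582 and 30455 against 102186, 102361 and 98986, a log2 fold change of 1.71 (SE 0.05, adjusted p = 1.7e-11). HSPH1, its nucleotide exchange factor, had 1609, 1821 and 1866 against 6439, 6682 and 6871. Of the 22 chaperonin and heat shock genes 16 rose and 0 fell.

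The mitochondrial and cytosolic ribosomes went opposite ways. Of 78 mitochondrial ribosomal proteins 71 rose and 2 fell, with a median of 0.58, and MRPL1 had values of 475, 393 and 295 against 1165, 1197 and 1143. Of 79 cytosolic ribosomal proteins 68 fell and 5 rose, with a median of -0.29. RPL3 had 90538, 90828 and 89691 against 58735, 58062 and 56902, and RPS26 was the only gene of this list called, at 1713, 1613 and 1564 against 3884, 3675 and 3539. Both medians kept their sign under every alternative run. Many ribosomal protein genes have processed copies elsewhere in the genome, and only uniquely mapped reads were counted.

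MYC is known to bind the E-box CACGTG. The promoters of the table of RefSeq sequences (GRCh38.p14, 250 bases before to 50 after the start of each gene) were searched for these letters, which read the same on both strands. A promoter was found for 10729 of 13065 protein-coding genes tested (82.1%) and for 632 of the 766 activated ones (82.5%). CACGTG was in 17.4% of the promoters of activated genes and in 1074 of the 10729 (10%). The share was 5.7% against 1.22% in the 50 bases after the start and 11.6% against 8.72% in the 250 bases before it. A promoter was found for only 77.1% of repressed coding genes, so shares over them leave out more genes. CACGTG was in 6.81% of the 1394 promoters found for them. The sequence GCGGGGGCG, a site of the EGR family that WT1 also binds, was searched on either strand. It was in 7.91% of the promoters of activated genes, 7.39% of those found for repressed genes and 7.99% of all. These differences were not tested. MYC itself did not pass the test, with values of 5365, 6137 and 6103 against 6126, 5874 and 6264.

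In the 8 lists of RNA polymerases I and III, nucleotide and polyamine synthesis, mitochondrial ribosome, translation initiation, chaperones and proteasome, a promoter was found for 31 of the 35 activated genes and 9 of these held CACGTG, against 34 of 213 for all tested genes of these lists. The windows of the 9 are printed to show where in the promoter the letters lie. Each is given 5′ to 3′ on the strand of the gene, with CACGTG in capitals.
POLR1G (19, plus strand, 45406620 to 45406649): cccctttggatcCACGTGgtctgcaacctg
WDR43 (2, plus strand, 28894658 to 28894687): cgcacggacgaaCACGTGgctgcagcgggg
PES1 (22, minus strand, 30591880 to 30591909): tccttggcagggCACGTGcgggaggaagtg
BYSL (6, plus strand, 41921515 to 41921544): ttcttcagtcccCACGTGcgatccttcccg
GTF3C6 (6, plus strand, 110958552 to 110958581): gtggcgagtctcCACGTGggtaccggcgct
DHODH (16, plus strand, 72008573 to 72008602): gccgctactgcgCACGTGcacccaaccaga
NME1 (17, plus strand, 51153581 to 51153608): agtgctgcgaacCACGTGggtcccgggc
SRM (1, minus strand, 11060200 to 11060229): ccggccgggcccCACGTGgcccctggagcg
HSPE1 (2, plus strand, 197500345 to 197500374): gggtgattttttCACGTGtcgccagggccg
The numbers in parentheses are the chromosome and the first and last base in GRCh38. The motif starts 12 bases before the start of POLR1G and 22 bases before that of HSPE1, at bases 4, 14, 29 and 35 after the start in WDR43, PES1, BYSL and NME1, and at 142, 159 and 199 bases before it in GTF3C6, DHODH and SRM. A match of letters is a description of the sequence and was not tested as a binding site.

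Genes of the integrated stress response fell. Of 24 genes of the ATF4 response and amino acid synthesis, 21 fell, 1 rose and 16 were repressed, with a median of -1.37. CHAC1, which degrades glutathione, had values of 1222, 968 and 1020 against 77, 68 and 69, a log2 fold change of -3.88 (SE 0.10, adjusted p = 2.9e-12). DDIT4, an inhibitor of mTORC1, went from 20643, 19483 and 18733 to 2371, 2219 and 2427. Asparagine synthetase ASNS had 34776, 37789 and 39532 against 8368, 8508 and 8677, and PHGDH, the first enzyme of serine synthesis, had 12501, 12160 and 13697 against 2235, 2275 and 2206. The B-K562 libraries were below every V-K562 library for these 4 genes. ATF4 itself fell less, from 19276, 17533 and 18251 to 12127, 11757 and 11472 (log2 fold change -0.64, SE 0.05).

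Related groups fell as well. Of 20 cytosolic aminoacyl-tRNA synthetases 12 fell and 6 rose: WARS1 had values of 25197, 25665 and 25469 against 8136, 7959 and 8101 and AARS1 fell by 1.41, whereas FARSB rose by 0.93. Of 18 chaperones and stress genes of the endoplasmic reticulum 17 fell and 1 rose. The Hsp70 of this compartment, HSPA5, had 58398, 63606 and 68484 against 26543, 27626 and 28125, opposite in direction to the cytosolic HSPA8. HERPUD1, which acts in degradation of misfolded proteins, fell by 1.5, and SDF2L1 was the gene that rose, by 0.36.

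Genes of the response to low oxygen and of glycolysis were mainly lower. Of 22 hypoxia genes 19 fell and 1 rose, with a median of -0.89, and 9 were repressed. NDRG1, a stress-responsive cytoplasmic protein, had values of 3325, 3580 and 3568 against 193, 178 and 183, a log2 fold change of -4.23 (SE 0.06, adjusted p = 1.8e-14). P4HA1, a collagen prolyl hydroxylase, had 9192, 10329 and 9697 against 1187, 1197 and 1215. The oxygen-regulated subunit HIF1A rose by 0.13, and this rise turned to -0.02 under quantile normalization. Of 22 glycolytic genes 13 fell and 2 rose. ALDOC, the brain form of aldolase, had 14818, 15336 and 15129 against 2536, 2371 and 2434, and ALDOA, the most abundant form, fell by 1.28. The glucose transporter SLC2A1 rose by 0.52. Tricarboxylic acid cycle genes went the other way, with 14 of 16 higher and 1 lower (median 0.30). Of 61 respiratory chain subunits 36 rose and 9 fell, by at most 0.89 and 0.62.

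Sterol synthesis was divided. Of 26 genes 17 fell and 6 rose. MSMO1, a sterol demethylase, had values of 2556, 2883 and 3268 against 893, 729 and 849, and squalene synthase FDFT1 had 18567, 19352 and 20868 against 8436, 7871 and 8023. In the lysosome 15 of 24 genes fell and 7 rose, with the protease CTSH lower by 1.34 and the membrane protein LAMP1 higher by 1.10.

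In the cell cycle, replication genes were mostly higher. Of 36 DNA replication genes 25 rose and 3 fell (median 0.34). GINS3, a subunit of the replicative helicase, had values of 581, 572 and 493 against 1244, 1164 and 1207 and was the only one called, and the sliding clamp PCNA rose by 0.82. Of 26 mitotic genes 12 fell (46.2%) and 9 rose (34.6%), near the shares over all genes, and none passed 2-fold. Of the inhibitors, CDKN1C fell from 1010, 1104 and 1316 to 386, 339 and 318, in addition to CDKN1A. Of 14 genes of the BCL2 family 8 fell and 4 rose. The proapoptotic gene BBC3 had 2271, 2066 and 2175 against 915, 862 and 803, BOK fell by 1.59, and BAX rose by 0.67.

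Signaling lists differed in direction. In the EGF family EGF had values of 854, 854 and 930 against 271, 272 and 263, and ERBB3 had 606, 616 and 823 against 228, 230 and 271, so that 3 of 7 were repressed together with AREG. The VEGF receptor FLT1 fell by 2.09 and the ligand PGF by 1.29, whereas VEGFB did not pass the test at -0.03. In the TGF-beta and BMP group 13 of 23 fell and 3 rose. GDF15, a stress-induced cytokine, had 8801, 7755 and 8916 against 744, 785 and 855, a log2 fold change of -3.42 (SE 0.06, adjusted p = 2.2e-13), INHBE had 1606, 1468 and 1604 against 125, 131 and 104, and the receptor TGFBR2 had 383, 422 and 432 against 93, 72 and 66. GDF15 and INHBE are also genes of the stress response described above. Of 17 NOTCH genes 5 fell and 7 rose (median 0.01): the ligand JAG1 and the targets HEY1 and HES1 fell by 2.10, 1.60 and 1.51, and the ligand genes DLL3 and JAG2 rose by 1.12 and 0.68. Of 25 WNT genes 9 fell and 9 rose, near the shares over all genes. WNT5B, a noncanonical WNT ligand, rose from 179, 172 and 170 to 529, 537 and 486.

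Of 21 factors and targets of NF-kappaB 13 fell and 3 rose. The chemokine CCL5 had values of 51, 59 and 38 against 1, 2 and 2, at least 16.4-fold lower, and the interleukin gene IL1B had 19, 19 and 20 against 2, 0 and 5. NFKB1, which encodes p50, rose from 455, 462 and 376 to 1033, 1001 and 975. Of 16 JAK and STAT genes 13 fell and 3 rose. The kinase PIM1, a STAT5 target, had 23551, 26110 and 28347 against 7520, 7898 and 8419, a log2 fold change of -1.71 (SE 0.07), and JAK3 fell by 2.81.

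In the interferon-stimulated list 18 of 21 genes fell and 1 rose. V-K562 replicate 1 was high for some of them, at 81 for MX1 against 11 and 16 and at 243 for IFI27 against 98 and 94. Without both replicate 1 libraries 17 fell and 2 rose, the median was -0.62 in place of -0.94, MX1 changed by -1.14 in place of -1.94, and IFI27 by -2.85 in place of -3.24. IFIH1, a sensor of viral RNA, was even over the libraries, at 222, 200 and 258 against 34, 25 and 35. Of 13 genes of MHC class I presentation 11 fell and 2 rose (10 and 2 without these libraries). PSMB8, an immunoproteasome subunit, had 244, 231 and 272 against 44, 34 and 34, HLA-B had 202, 141 and 165 against 55, 54 and 55, and HLA-E fell by 1.08. TAP2 and PSMB10 rose, by 0.48 and 0.46.

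Receptors of steroid and thyroid hormones held some of the largest changes. The progesterone receptor gene PGR had values of 312, 355 and 346 against 12, 10 and 11, a log2 fold change of -4.82 (SE 0.15, adjusted p = 1.4e-11). The thyroid hormone receptor THRB had 272, 269 and 249 against 12, 16 and 12. The estrogen receptor ESR1 went the other way, from 12, 11 and 22 to 459, 444 and 502. Over all 32 nuclear receptors tested, 13 fell and 12 rose, near the shares over all genes. In the insulin-like growth factor axis 4 of 13 genes fell and 6 rose (median 0.06). IGF1 fell from 252, 236 and 271 to 70, 61 and 97 and its binding protein IGFBP4 by 1.66, while the receptor adaptor IRS1 rose from 16, 8 and 4 to 36, 19 and 24 and IGF2BP1, an RNA-binding protein, by 0.77.

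Laminins, integrins and collagens, through which cells hold to the matrix, were mainly lower. All 8 laminins tested fell (median -1.46), among them LAMB1, with values of 2832, 3051 and 3230 against 930, 917 and 951. LAMA4 was less even, at 38, 35 and 38 against 47, 6 and 7, with B-K562 replicate 1 above V-K562. Without both replicate 1 libraries all 8 laminins also fell (median -1.59). Of 16 integrins 13 fell and 2 rose: ITGA4 had 761, 772 and 638 against 174, 170 and 184, ITGA5, the fibronectin receptor chain, fell by 1.34, and ITGAM rose by 1.01. Of 28 collagens 16 fell and 6 rose, with COL6A3 at 2496, 2903 and 4073 against 545, 445 and 470 and COL14A1 higher by 2.04. COL3A1 did not pass the test with all 6 libraries (log2 fold change -1.88, adjusted p = 0.22) and fell by 4.51 without both replicate 1 libraries (adjusted p = 3.1e-05), where 17 collagens fell and 5 rose.

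Among 40 genes of axon guidance 26 fell and 7 rose (median -0.85). ROBO2, a receptor for SLIT, had values of 218, 229 and 249 against 9, 10 and 11, a log2 fold change of -4.41 (SE 0.17, adjusted p = 6.6e-11). Of its ligands, SLIT2 rose from 136, 145 and 107 to 450, 459 and 496 and SLIT3 fell by 2.71. The netrin receptor UNC5B had 4924, 4925 and 5807 against 1057, 1056 and 996. Of 28 genes of the actin cytoskeleton and of mesenchymal cells 21 fell and 2 rose. The annexin ANXA1 had 12205, 11682 and 10223 against 1872, 1888 and 1844, and the intermediate filament VIM fell by 1.04.

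Few chromatin regulators passed 2-fold. Of 24 SWI/SNF subunits 18 rose and 2 fell, and none of 12 histone acetyltransferases passed 2-fold, with 9 higher and 1 lower. Of 17 histone deacetylases and sirtuins 7 rose and 7 fell, near the shares over all genes. HDAC5, a class IIa deacetylase, had values of 3932, 4065 and 4391 against 1791, 1758 and 1786 and SIRT5 fell by 1.08. Of 29 polycomb genes 11 rose and 11 fell, also near these shares. The CBX subunits that read H3K27 methylation differed, with CBX2 at 809, 788 and 821 against 1942, 1929 and 1898 and CBX7 at 597, 627 and 628 against 289, 276 and 273, and EED, the core subunit of the methyltransferase, rose by 0.90. The H3K4 methyltransferase SETD1A had 2094, 2141 and 2125 against 4336, 4292 and 4395. UHRF1, which brings DNA methyltransferase to replicated DNA, rose by 1.33. Of 433 ZNF genes tested, 195 rose (45.0%, against 38.6% over all genes) and 114 fell (26.3%, against 37.2%). The 25 activated ones were near the share over all genes (5.77% against 6.46%), and the 21 repressed ones below it (4.85% against 14.1%). Of 31 cancer-testis genes 13 rose (41.9%), near the share over all genes, and 7 fell (22.6%, against 37.2%). CTAG2 was at 95, 73 and 80 against 412, 408 and 361.

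By position, repressed and activated genes were found on chromosomes 1 to 22 and X. The share activated was highest on chromosome 21 (22 of 152 genes, 14.5%) and chromosome 16 (65 of 683, 9.52%). Chromosome 16 also had the highest median, 0.23, with 51.2% of its genes higher and 28.3% lower. The share repressed was highest on chromosome 4 (102 of 524, 19.5%). Medians of all other chromosomes lay between -0.10 and 0.13.

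The start sites of these genes were then examined in the ATAC-seq peaks of the same lines, 3 libraries each, as a measure that did not enter the choice of genes. Of repressed genes 41.8% had a peak within 1 kb of the start in all 6 libraries, of activated genes 61.5% and of the rest 77.4%. A peak in V-K562 libraries only was found for 54 repressed and 3 activated genes, and one in B-K562 libraries only for 6 and 22. In genes with a peak in all 6 libraries, the summit pileup, the number of tags at the highest point of the peak, was higher in B-K562 libraries in general (median log2 ratio 0.39 over all such genes). It was 0.23 for repressed genes, 0.39 for the rest and 0.47 for activated genes, and the ratio was below 0 for 26.8%, 5.39% and 3.36%. Peaks were called by library, so tags below the caller's threshold may exist where no peak is listed. Repressed genes were mainly of low level, and the shares with a peak were not compared at equal level. A single start was used for each gene, so peaks at its other starts were not counted.

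**Figure D5:**
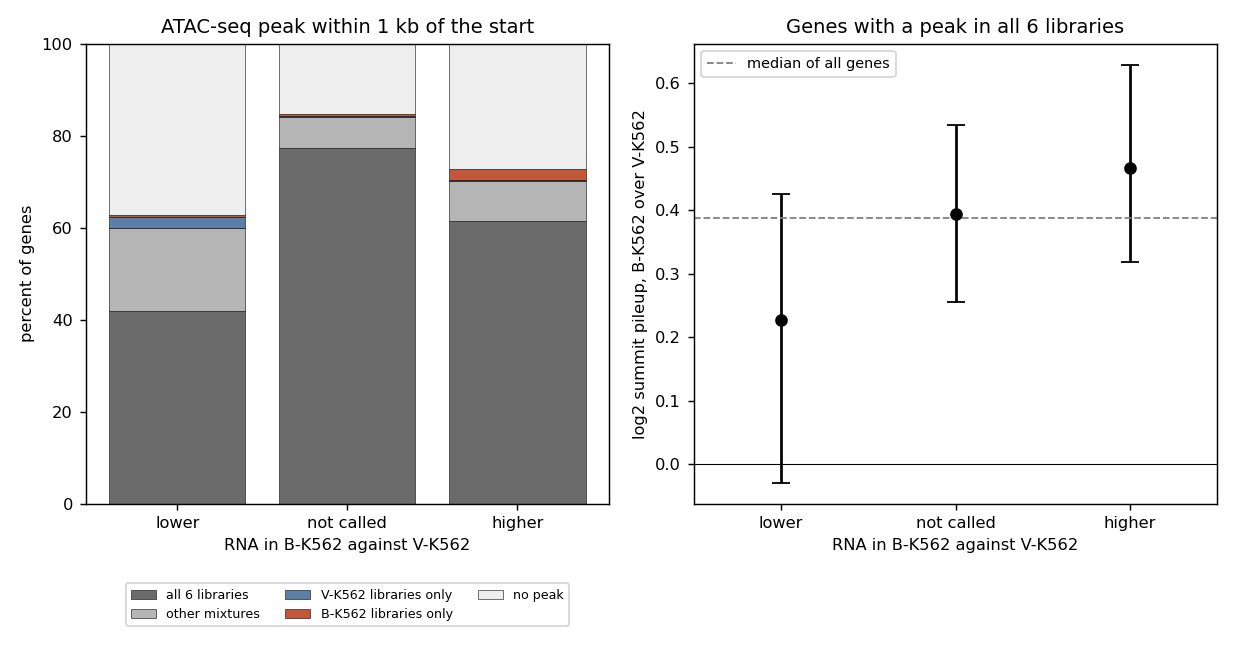
On the left, the percent of repressed, uncalled and activated genes with an ATAC-seq peak within 1 kb of the start in all 6 libraries, in mixtures, in 1 line only or in none. On the right, the median (point) and quartiles (bars) of the log2 ratio of summit pileups, B-K562 over V-K562, where all 6 libraries had a peak; it rises from 0.23 for repressed to 0.47 for activated genes.

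Single genes showed each pattern. The start of THRB had pileups of 37, 39 and 47 in V-K562 libraries and no peak in B-K562 libraries, and the same was found for ZNF506, ZNF597 and the protocadherin PCDH10, whose RNA fell from 272, 280 and 324 to 20 in all 3 libraries. At HSPA8 the pileup was 127, 117 and 148 against 242, 242 and 244, and at CA2 it was 41, 53 and 34 against 89, 94 and 89. At GDF15 it was lower in B-K562, at 156, 163 and 135 against 105, 102 and 117. At VEGFA, whose RNA fell by 2.27 on the log2 scale, the pileups of 93, 116 and 122 against 104, 125 and 115 overlapped. Their log2 ratio was 0.061, below the median of 0.388 over all genes with a peak in all 6 libraries. The ratio was 0.895 at HSPA8, 1.092 at CA2 and -0.481 at GDF15. Pileups were compared as deposited, with no scaling between libraries. PGR, ROBO2 and ANXA1 had no peak within 1 kb in either line.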

How the data were processed

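RNA was measured by paired-end RNA-seq of polyadenylated RNA from 3 cultures each of V-K562 and B-K562 cells. STAR was used by the authors for alignment to GRCh38 and Subread for counting on RefSeq genes, after duplicates and reads with several positions had been dropped. The authors deposited these counts divided by DESeq2 size factors and rounded, so the unit is a normalized signal. For ATAC-seq, the deposited signal is the summit pileup of peaks the authors called per library with MACS2. The deposited table also holds the authors' own fold changes and p-values, which were not used. Columns were matched to samples by name, and 27745 of 28395 identifiers to RefSeq symbols. Since the signal is not a raw count, log2(value + 1) was tested with limma 3.58.1 (R 4.3.3, trended prior), Benjamini-Hochberg adjusted, for genes at 10 or more in at least 3 of 6 libraries; this was tested on simulated data. Other steps used Python 3.11.15. A group whose libraries are all at or below 3 was set to 3 for a bound on the fold. Start sites were taken within 1 kb of an ATAC-seq peak. The genes and gene lists were chosen with earlier results of these data known. Named genes are those the study names, the 15 largest rises and falls with a mean of at least 50, the 3 largest rises and falls per list, every member of lists of at most 15, and the 5 most abundant per length. The other named genes (ASNS, PHGDH, ATF4, HSPA5, ALDOA, VIM, ITGA5, HLA-E, MX1, TDO2, SNORA73A, NME1 and the genes high in 1 library) were chosen after their values were seen. Cultures are the replicates, and precision is limited by 3 per line. Some genes are not reported here.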

Additional observations from a re-analysis of the deposited data

How the results depend on the processing

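The direction of the comparison held in most settings. Leaving out each library in turn gave 2032 to 2138 repressed and 889 to 1028 activated genes, and 67.5% to 69.57% of the genes called were repressed. Requiring a value of 10 or more in all 6 libraries left 1373 repressed genes, since genes that fell to low values are then not tested. Without the fold criterion 5562 genes were lower and 5780 higher, and 49.04% of these were lower. Quantile normalization gave 52.15% repressed; the cause was not tested. Of 537 named genes under 15 alternatives, 154 results no longer passed the test, 44 passed newly and 5 reversed. The reversals were all under quantile normalization, for ALAS1 (-0.004), KLF3 (-0.018), ATP5F1D (-0.022), HIF1A (-0.023) and STARD3 (-0.034). Some list medians also reversed. Under quantile normalization these were iron handling (-0.079), cadherins (0.264), protocadherins (0.12, from -0.401), histone deacetylases and sirtuins (-0.026), polycomb (-0.054), DNA methylation enzymes (-0.026) and HOX genes (0.248, from -0.171). With no filter on low values they were WNT (-0.162), histone deacetylases and sirtuins (-0.001), DNA methylation enzymes (-0.023) and histone genes (-0.103). With libraries shifted to 1 median they were polycomb (-0.002) and histone genes (-0.035), and without both replicate 1 libraries the BASP1 family (0.004). The median of the EGF family was -1.47 and moved to -0.61 without B-K562 replicate 1, and that of matrix proteases from -0.85 to -0.56 without B-K562 replicate 2. The labels number the cultures 1 to 3 in both lines. Deviations of same-numbered libraries from their line's mean correlated at 0.07, 0.041 and 0.001, and those of other pairs at -0.082 to 0.053. Whether same-numbered cultures were prepared together is not known from this, and the main test does not pair them. With the replicate number as a block, 2121 genes were repressed and 971 activated. The 3 libraries per line limit the precision. With no filter on low values 2830 genes were repressed and 1173 activated.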
